A study of Mus musculus with 18 samples.

Results

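The comparison described here is between the erbB2-positive and the erbB2-negative cells recovered from a co-culture of the mouse mammary lines Comma-D and MMTV-neu mixed at 1:50. It rests on 6 of the 18 arrays of the series, 3 arrays of the erbB2-positive fraction and 3 of the erbB2-negative fraction, chosen by their sample titles. Arrays with the same replicate number were taken as a pair, so every difference below is positive minus negative within 3 pairs. Comma-D is an epithelial line from normal mouse mammary gland, and MMTV-neu cells derive from tumours in which the mouse mammary tumour virus promoter drives the neu oncogene, a form of erbB2. Both fractions came from cultures grown together in the Comma-D medium, which contains insulin and EGF, and were separated by an erbB2 antibody, a biotinylated secondary antibody and magnetic beads. The labels name the erbB2-negative fraction normal, without phosphorylated erbB2, and the erbB2-positive fraction redirected, with erbB2 but again without its phosphorylated form. The titles write the ratio with 1 beside Comma-D and 50 beside the fraction, and do not say which line supplied the 50 parts. For reference, 3 arrays each are used of unmixed Comma-D in its own medium, of unmixed MMTV-neu in another medium, and of both fractions of a 1:1 co-culture, of which the labels name the erbB2-negative one normal and the erbB2-positive one cancer. Line and medium cannot be told apart in the MMTV-neu arrays. Nothing in the labels says that arrays of a group came from separate cultures, so the p-values measure the spread between these samples, which may be technical. The RNA was bulk, and fewer cells of a type cannot be told apart from less RNA per cell.

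ErbB2 is a receptor tyrosine kinase that has no ligand of its own and signals by pairing with EGFR, ErbB3 or ErbB4, which feed the ERK and AKT pathways. The mammary gland has an inner luminal layer, which makes the simple keratins Krt8 and Krt18, and an outer basal or myoepithelial layer, which makes Krt5, Krt14 and smooth muscle contractile proteins. Keratins act as obligate pairs of a type II chain such as Krt8 and a type I chain such as Krt18. Values are deposited log2 expression values, so a difference of 1 is a 2-fold difference, and a gene was called when its adjusted p from limma was under 0.05.

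The 2 fractions of the 1:50 co-culture were much alike. Within a pair, Pearson's r over the 19938 genes was 0.983, 0.996 and 0.994, as a description across genes of the same array pair, against 0.948, 0.930 and 0.933 in the 1:1 co-culture. The standard deviation of the gene differences was 0.39 in pair 1, 0.17 in pair 2 and 0.23 in pair 3. In pair 1, 36 genes were at least 2-fold higher and 97 at least 2-fold lower in the erbB2-positive fraction, against 6 and 0 in pair 2 and 3 and 3 in pair 3. Pair 1 thus stood apart from the other pairs. Means over the pairs below include it, and its own value is shown for only some genes. Only Krt8 was called in the fit of the 12 co-culture arrays, which has 4 residual degrees of freedom, and it was higher (0.00502% of genes higher, 0% lower). The next lowest adjusted p over all genes was 0.0743. Without adjustment, 5010 genes (25.1%) had a limma p under 0.05, of which 1169 were higher (5.86%) and 3841 lower (19.3%). At an adjusted p under 0.1, a threshold added after the data were seen, 1508 genes passed (7.56%), 153 higher (0.767%) and 1355 lower (6.8%). The count of calls varied strongly with the fit and the scaling, and the cause was not tested. There were 918 calls, 27 of them higher, in a fit of the 6 arrays of the 1:50 co-culture alone. Calls numbered 2 without the replicate block and 0 after quantile normalization.

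Both fractions held high levels of Krt14, Krt5, Vim, Cdh1 and Xist, which were higher in unmixed Comma-D than in MMTV-neu. The basal keratin Krt14 lay at 11.72, 11.64 and 11.47 in the 3 erbB2-negative arrays and at 11.28, 11.64 and 11.56 in the erbB2-positive arrays, where the median probe set of these arrays lay between 6.03 and 6.14. Krt14 was high in every array and the fractions overlapped. Krt5, its usual partner, lay at 10.90 to 11.54 in the negative and 10.88 to 11.41 in the positive fraction. Vim, the intermediate filament of mesenchymal cells, lay at 12.93 to 13.01 and 12.69 to 12.93, and the epithelial cadherin Cdh1 at 9.37 to 9.57 and 9.05 to 9.67. Unmixed Comma-D and MMTV-neu averaged 10.98 and 7.43 for Krt14, and 9.77 and 7.71 for Krt5. They averaged 12.93 and 8.13 for Vim, and 9.41 and 7.12 for Cdh1. Krt5 thus lay above both lines, with means of 11.30 in the negative and 11.15 in the positive fraction. Xist, the RNA of the inactive X chromosome, was at 11.73 to 11.80 and 11.48 to 11.99 in these fractions while MMTV-neu minus Comma-D was -5.93 log2 units.

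Erbb2 (probe set 10380896, chromosome 11), whose protein the beads selected, did not separate the fractions. Its level was 8.30, 8.17 and 8.36 in the erbB2-negative arrays and 8.14, 8.16 and 8.36 in the erbB2-positive arrays. The arrays overlapped, and the difference of -0.05 (SE 0.08, 3 pairs) had an adjusted p of 0.688 by limma. The unmixed lines also had similar levels, with MMTV-neu minus Comma-D at -0.14. Whether this probe set reads the transgene was not tested. The arrays measure RNA and the beads bind protein at the cell surface.

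On the line between the unmixed cultures, both fractions lay near Comma-D. Each array was placed by projection on the difference between the unmixed lines, taken over 1641 genes called between them with a size of at least 2 log2 units, with the Comma-D mean at 0% and the MMTV-neu mean at 100%. The erbB2-negative arrays lay at 3.49%, 2.20% and 4.11%, and the erbB2-positive arrays at 23.0%, 7.20% and 12.7%. All 3 positive arrays lay above all 3 negative arrays. The pair differences were 19.5, 5.00 and 8.63 percentage points, a mean of 11.1 ± 7.57 (SD, n = 3), or 6.82 for pairs 2 and 3. The two-sided exact permutation p was 0.1 over arrays and 0.25 within pairs, the smallest each can give here. In the 1:1 co-culture the pair differences were 38.3, 47.4 and 44.3 points, above all 3 of the 1:50 pairs.

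**Figure D1:**
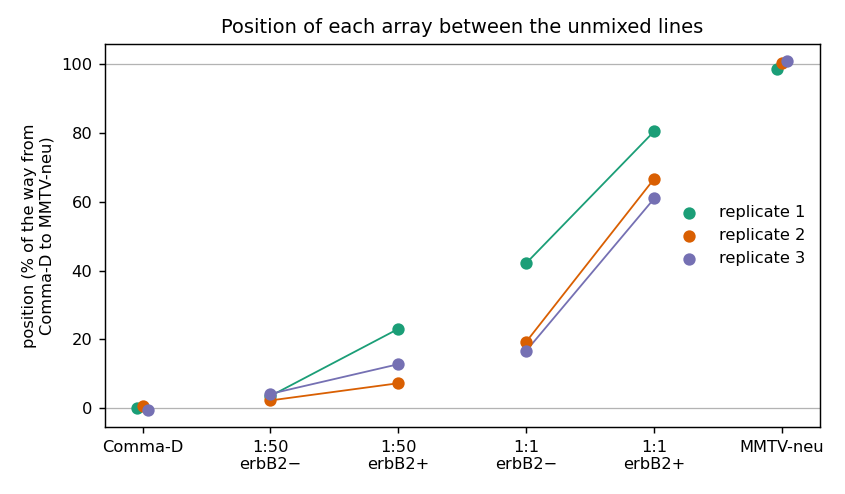
Position of each of the 18 arrays between the unmixed lines (y axis, percent of the way from the Comma-D mean to the MMTV-neu mean) by group (x axis), with points coloured by replicate number and lines joining the fractions of a pair. The 1:50 erbB2-positive arrays sit at 7.20% to 23.0%, above the 1:50 erbB2-negative arrays at 2.20% to 4.11%, and below all 1:1 erbB2-positive arrays.

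Krt8 (probe set 10432918, chromosome 15), the type II keratin of simple and luminal epithelium, rose by the most of any gene. Its level was 7.85, 8.20 and 7.65 in the erbB2-negative arrays and 10.76, 10.16 and 10.19 in the erbB2-positive arrays. Every positive array lay above every negative array by nearly 2 log2 units or more. The difference was 2.47 (SE 0.18, 95% interval 2.06 to 2.88, 3 pairs), which is 5.53-fold, with an adjusted p of 0.0115 by limma, and it was higher in 3 of 3 pairs. Over 15 alternative settings the difference ran from 2.25 to 2.73 and the adjusted p from 3.00e-06 to 0.161. The call was lost after quantile normalization (0.112), without pair 1 (0.107) or pair 3 (0.161) of the 1:50 co-culture, and without pair 2 of the 1:1 co-culture (0.0991). In the unmixed lines Krt8 averaged 7.41 in Comma-D and 11.34 in MMTV-neu, and in the 1:1 co-culture it was already 10.46 to 11.12 in the erbB2-negative fraction and 11.22 to 11.35 in the erbB2-positive fraction.

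Krt18, the type I partner of Krt8, showed no such difference. It lay at 8.96, 9.06 and 8.92 in the erbB2-negative and at 8.68, 8.86 and 8.68 in the erbB2-positive fraction. The fractions did not overlap, with the positive fraction below, and the difference of -0.24 (SE 0.07) had an adjusted p of 0.110 by limma. MMTV-neu minus Comma-D was -0.77 for Krt18, so its small difference ran in the direction of the lines. Krt19, another simple type I keratin, differed by 0.10 (adjusted p 0.425), and Epcam, an epithelial adhesion molecule, by -0.13 (adjusted p 0.506). Krt19 and Epcam were chosen after their values were seen.

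Among the 25 measured luminal epithelial markers, only Krt8 was called, and their median difference was -0.01, against 0.00 for all genes. In 3 of them all positive arrays lay above all negative arrays, and in 1 below, where 12% and 17.1% of all genes did so. Foxa1, a pioneer factor that opens chromatin for hormone receptors, lay at 7.90, 7.83 and 7.75 in the negative and 8.77, 8.12 and 8.07 in the positive arrays, a difference of 0.49 (adjusted p 0.149 by limma). Spdef, a luminal Ets factor, differed by 0.41 (adjusted p 0.112). Both had separate arrays and both were higher in MMTV-neu than in Comma-D, by 2.73 and 1.85. The progesterone receptor Pgr went the other way in all 3 pairs, by -0.29, -0.34 and -0.41, with overlapping arrays and an adjusted p of 0.0844. The list's median was 0.22 after centring on reference genes and 0.07 after quantile normalization.

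**Figure D2:**
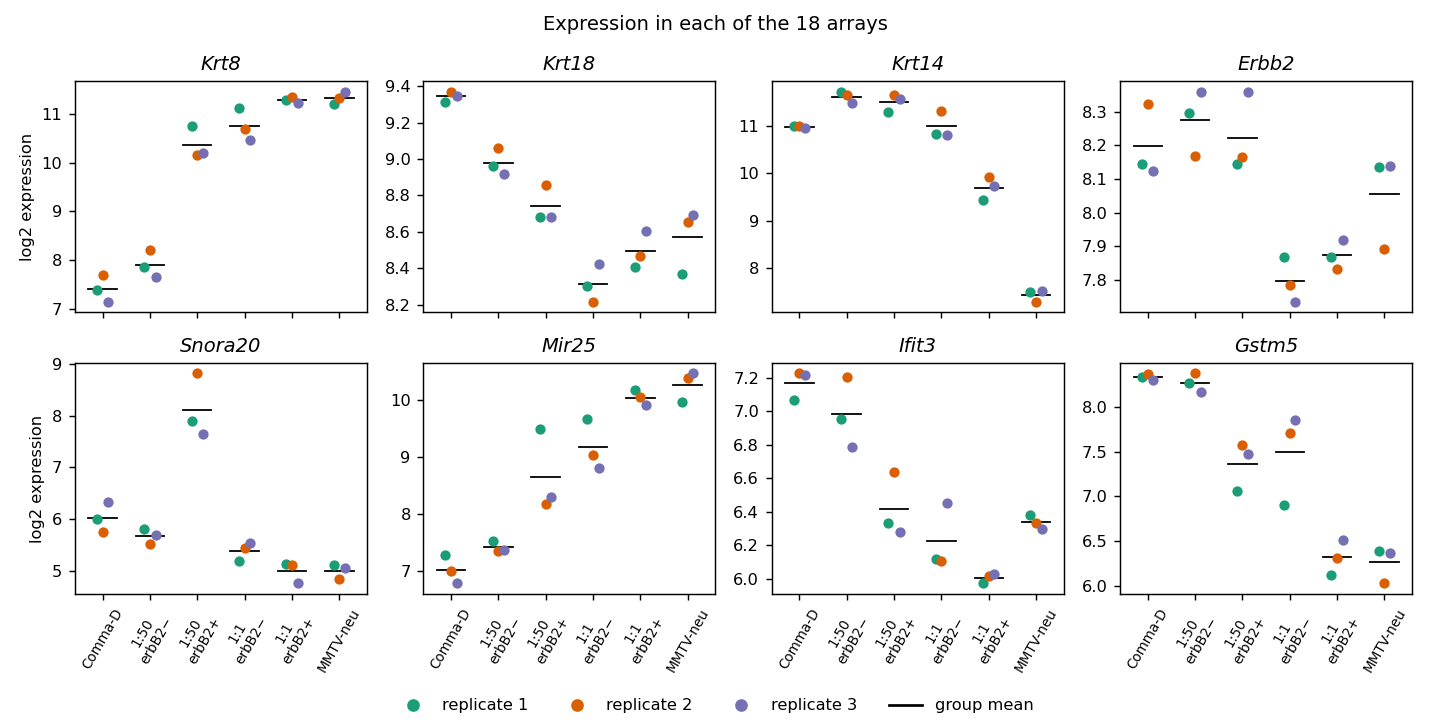
Log2 expression (y axes, one scale per gene) of 8 genes in each of the 18 arrays by group (x axis), coloured by replicate number, with black bars for the group means of 3 arrays. Krt8 in the 1:50 erbB2-positive arrays (10.16 to 10.76) sits close to the 1:1 and MMTV-neu levels, Snora20 (7.64 to 8.81) is above every other group, and Erbb2 overlaps between the 1:50 fractions.

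Small RNA genes were 5 of the 7 genes at least 1 log2 unit higher in the erbB2-positive fraction. Of these 7, 6 had arrays that did not overlap (0.0301% of genes), among them Krt8, Snora20, Mir25, Mir421 and Rnu3a. Snora20 guides pseudouridylation of ribosomal RNA as a box H/ACA small nucleolar RNA. It lay at 5.80, 5.51 and 5.69 in the erbB2-negative arrays and at 7.90, 8.81 and 7.64 in the erbB2-positive arrays. The fractions were far apart, and the positive arrays also lay above those of Comma-D and MMTV-neu. The difference was 2.45 (SE 0.25, pairs 2.10, 3.30 and 1.95), with an adjusted p of 0.0743 by limma. It passed the threshold without the replicate block (adjusted p 0.00717), after centring (5.33e-06) and in the fit of 6 arrays (0.0478), and did not after quantile normalization (0.132), without pair 1 (0.277) or pair 3 (0.161) of the 1:50 co-culture or without pair 2 of the 1:1 co-culture (0.120). Rnu3a, a U3 small nucleolar RNA gene that acts in ribosomal RNA cleavage and was chosen after its values were seen, lay at 8.09, 7.42 and 7.35 and at 8.41, 9.35 and 8.56, with pair differences of 0.32, 1.93 and 1.21 and an adjusted p of 0.0757. Like Snora20, it was lower in MMTV-neu than in Comma-D, at -1.68 for Rnu3a and -1.02 for Snora20. Over 52 small nucleolar RNA genes the median difference was 0.12, 5 (9.62%) had positive arrays above all negative arrays and 3 below, against 12% and 17.1% of all genes, so the list as a whole held no larger share above.

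MicroRNA hairpin genes were chosen for description after their values were seen. A microRNA is processed from a hairpin and finds its targets mainly through its seed, bases 2 to 8, so mature sequences with one seed share many targets. The probe sets read the hairpin locus and not the mature RNA. Several of the hairpins with the largest differences share a seed or lie in one cluster, and the mature sequences of these are shown with the seed in capitals, from RefSeq on GRCm38.p6, first those with the seed AUUGCAC and then those with AAAGUGC.
miR-25-3p: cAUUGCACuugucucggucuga
miR-32-5p: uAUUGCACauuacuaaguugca
miR-92b-3p: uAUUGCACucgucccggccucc
miR-106b-5p: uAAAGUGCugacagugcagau
miR-93-5p: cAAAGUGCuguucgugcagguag

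Mir25, Mir93 and Mir106b lie in one cluster on the minus strand of chromosome 5, within the gene Mcm7, with the Mir25 hairpin at chr5:138165321-138165404, the Mir93 hairpin at chr5:138165523-138165610 and the Mir106b hairpin at chr5:138165737-138165818. Mir25 lay at 7.53, 7.35 and 7.37 in the erbB2-negative arrays and at 9.50, 8.17 and 8.29 in the erbB2-positive arrays. The arrays did not overlap. The difference was 1.24 (SE 0.21, pairs 1.97, 0.82 and 0.92), with an adjusted p of 0.0752 by limma. Mir106b differed by 0.72 (adjusted p 0.0823) and Mir93 by 0.39 (adjusted p 0.0830), each with separate arrays and higher in 3 of 3 pairs. The host gene Mcm7, a subunit of the replicative helicase, was lower in all 3 pairs, by -0.27, -0.08 and -0.29, with overlapping arrays and an adjusted p of 0.477. No difference of the host was shown, and its value was 0.02 after centring and 0.03 after quantile normalization.

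Mir92b on chromosome 3 and Mir32 on chromosome 4 share the seed of miR-25. Mir92b lay at 6.13, 6.02 and 5.99 in the negative and 7.12, 6.40 and 6.51 in the positive arrays, a difference of 0.63 (adjusted p 0.0760). Mir32 lay at 4.58, 4.32 and 4.61 and at 5.56, 5.09 and 4.92, a difference of 0.69 (adjusted p 0.111). Both had separate arrays, and Mir32 lay below the array medians in both fractions. Other hairpins with the same seed showed no such difference, at -0.02 for Mir367, -0.02 for Mir363 and 0.07 for Mir92-2, all 3 with overlapping arrays and levels near 4 to 5. Mir421 on the X chromosome, within the Ftx gene, lay at 4.58, 4.47 and 4.35 and at 6.64, 5.25 and 5.16, a difference of 1.22 (SE 0.24, adjusted p 0.0752). Mir421, the second largest of the hairpin differences, has neither seed. Mir320, Mir199a-1 and Mir328 followed Mir92b at 0.58 (adjusted p 0.0992), 0.57 (adjusted p 0.108) and 0.51 (adjusted p 0.130), each with separate arrays, ahead of Mir93, and the mature sequences found for Mir199a-1 have neither seed. Over all 300 hairpin genes the median difference was 0.09, with 85 (28.3%) having positive arrays above all negative arrays and 2 below, where 12% and 17.1% of all genes did so. Of the 300, 250 belong to the 2 lowest of 4 bins of genes by Comma-D level, in which 18% and 21.0% of genes lay entirely above, with medians of 0.06 and 0.11. A mature sequence was found for 270 of them.

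Other genes with large differences in the positive direction had separate arrays but were not called. Egr3, an immediate early zinc finger factor induced by growth factor signalling, lay at 7.53, 7.58 and 7.68 in the negative and 8.99, 8.35 and 8.22 in the positive arrays, a difference of 0.92 (SE 0.19, adjusted p 0.0757 by limma). The 29 immediate early and heat shock genes had a median of -0.16, which was 0.06 after centring and 0.02 after quantile normalization. Of them, 14 (48.3%) were lower in all 3 pairs and 3 higher, against 31.2% and 22.6% of all genes. The highest of the 4 bins by Comma-D level holds 24 of the 29, and 66.8% of its genes were lower in all 3 pairs. Dnajb1, a heat shock co-chaperone, differed by -0.49 (adjusted p 0.0962). Camta1, a calmodulin-binding transcription activator, lay at 9.58, 9.69 and 9.56 and at 11.08, 10.30 and 10.35, a difference of 0.97 (adjusted p 0.0752). Chd7, a chromatin remodelling enzyme, also differed by 0.97 (adjusted p 0.0761), with pairs of 1.63, 0.82 and 0.44. Hoxc10, a posterior Hox factor, differed by 0.59 (adjusted p 0.104), with 1.18 in pair 1 and 0.22 and 0.38 in the others, at levels of 5.02 to 5.11 in the negative fraction. Camta1, Chd7 and Hoxc10 were chosen after their values were seen, and all 3 were higher in MMTV-neu than in Comma-D, by 2.71, 2.38 and 3.70.

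In the other direction no gene was called, but many small differences recurred in every pair. All positive arrays lay below all negative arrays for 3412 genes (17.1%) and above them for 2390 (12%), and the difference had the same sign in all 3 pairs, lower, for 6215 genes (31.2%) and higher for 4513 (22.6%). The sign followed the level of a gene in Comma-D. With all genes put in 4 equal bins by their Comma-D level, the median difference was 0.06 in the lowest bin, 0.11 in the next, then -0.12, and -0.26 in the highest. In the highest bin, which holds many members of the lists below, 66.8% of genes were lower in all 3 pairs and 38.6% had positive arrays entirely below. The spread of values within an array moved with this, at a standard deviation of 1.99 in each negative array against 1.85, 1.96 and 1.92 in the positive arrays. After quantile normalization, which equalises that spread, the bin medians were 0.00, 0.03, -0.01 and -0.03. Each list below is therefore given also with its median after quantile normalization and after centring every array on 9 measured reference genes, which moved the median of all genes by 0.23.

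The 4 genes with the lowest differences were Tox4, Ifi205, Alg14 and Gstm5, chosen after their values were seen. Tox4, a chromatin-associated HMG box protein, was the only gene at least 1 log2 unit lower, at 7.98, 8.23 and 7.94 in the negative and 6.21, 7.75 and 7.13 in the positive arrays. Its difference of -1.02 (SE 0.36, adjusted p 0.140 by limma) was set largely by pair 1, at -1.77 against -0.49 and -0.82. Gstm5, a glutathione transferase, lay at 8.27, 8.38 and 8.16 and at 7.06, 7.58 and 7.47, a difference of -0.90 (SE 0.14, adjusted p 0.0752). Ifi205, an interferon-inducible gene of the p200 family, lay at 7.36, 7.63 and 7.15 and at 5.94, 6.97 and 6.31, a difference of -0.97 (SE 0.16, adjusted p 0.0752). Alg14, which acts in the first steps of N-glycan synthesis, differed by -0.96 (SE 0.23, adjusted p 0.0843) with separate arrays.

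Interferon-stimulated genes lay lower in the erbB2-positive fraction as a list, without a call at the fixed threshold. Of 25 measured members, 13 had positive arrays entirely below the negative arrays and 0 above, and 17 were lower in all 3 pairs against 1 higher. That is 52% entirely below and 68% lower in all 3 pairs, against 17.1% and 31.2% of all genes, and 7 of the 25 belong to the highest bin. Their median difference was -0.24, with -0.56, -0.18 and -0.23 in the 3 pairs, -0.01 after centring and -0.13 after quantile normalization. Ifit3, which acts with Ifit1 in binding viral RNA, lay at 6.95, 7.20 and 6.79 in the negative and at 6.33, 6.64 and 6.28 in the positive arrays. Its pair differences of -0.62, -0.57 and -0.51 were nearly equal (mean -0.56, adjusted p 0.0752 by limma). Dhx58, a cytosolic RNA sensor, differed by -0.56 (adjusted p 0.0752), Ifit1 by -0.54 (adjusted p 0.0931), and Usp18, which removes the ubiquitin-like protein ISG15 and dampens interferon receptor signalling, by -0.48 (adjusted p 0.0866). All 4 had arrays that did not overlap. The 14 measured type I and III interferon genes had a median of 0.09 (0.32 after centring, 0.05 after quantile normalization), with 0 lower in all 3 pairs. Of the 14, 11 belong to the 2 lowest bins by Comma-D level, with medians of 0.06 and 0.11. In those bins 3.75% and 9.65% of genes were lower in all 3 pairs.

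Ribosomal protein genes of mitochondria, which translate the mitochondrial messages of the respiratory chain, also lay lower without a call. Of 77 members, 53 had positive arrays entirely below the negative arrays and 1 above, and 66 were lower in all 3 pairs. That is 68.8% entirely below and 85.7% lower in all 3 pairs, against 17.1% and 31.2% of all genes, with 32 members in the highest bin. The median was -0.37, with -0.50, -0.26 and -0.34 in the pairs, -0.14 after centring and -0.16 after quantile normalization. Mrpl32, a subunit of the large mitochondrial ribosome chosen after its values were seen, lay at 6.99, 7.16 and 7.31 in the negative and 6.20, 6.49 and 6.36 in the positive arrays, a difference of -0.80 (SE 0.14, adjusted p 0.0752 by limma). Of 63 cytosolic ribosomal protein genes, 36 lay entirely below and 1 above, with a median of -0.21 that was 0.02 after centring and -0.05 after quantile normalization. The 57.1% entirely below stand beside 17.1% of all genes and 38.6% of the highest bin, which holds 53 of the 63. The 9 reference genes themselves had a median of -0.22.

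Proliferation genes were lower in the pairs while their level varied more between replicates than between fractions. Of 29 mitosis genes, 26 were lower in all 3 pairs and 0 higher, but only 1 had arrays that did not overlap. That is 89.7% lower in all 3 pairs and 3.45% entirely below, against 31.2% and 17.1% of all genes. The highest bin, with 66.8% and 38.6%, holds 11 of the 29. Mad2l1, a spindle checkpoint protein, lay at 9.03, 9.03 and 10.27 in the negative and 8.15, 8.34 and 9.54 in the positive arrays. Replicate 3 was the highest in both fractions, and the pair differences were -0.88, -0.68 and -0.74 (mean -0.77, SE 0.11, adjusted p 0.0752 by limma). Kif11, the kinesin that separates spindle poles, differed by -0.54 (adjusted p 0.167), with its replicate 3 again the highest. The list's median was -0.36, -0.13 after centring and -0.18 after quantile normalization. Of 32 DNA replication genes, 22 were lower in all 3 pairs and 0 higher. That is 68.8% lower, against 31.2% of all genes, with 8 of the 32 in the highest bin. Their median was -0.24, -0.01 after centring and -0.12 after quantile normalization. Prim1, the primase subunit that starts new strands, differed by -0.69 (pairs -0.71, -0.62 and -0.76, adjusted p 0.104), and Pcna, the sliding clamp, by -0.51 (adjusted p 0.0752).

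Stress and metabolic lists followed. Of 30 genes of the unfolded protein and amino acid stress responses, 27 were lower in all 3 pairs and 0 higher, with a median of -0.28, -0.05 after centring and -0.07 after quantile normalization. All 30 members lay between -0.55 and -0.07, and 25 of them belong to the highest bin by Comma-D level. Lower in all 3 pairs were 90% of the list, against 31.2% of all genes and 66.8% of that bin. Sdf2l1, an endoplasmic reticulum chaperone cofactor, differed by -0.55 (adjusted p 0.0844 by limma). The serine and glycine enzymes Phgdh and Shmt2 differed by -0.52 (adjusted p 0.0777) and -0.46 (adjusted p 0.0752), and the cystine transporter Slc7a11 by -0.43 (pairs -0.40, -0.51 and -0.39, adjusted p 0.0752). Shmt2 alone of these had separate arrays, and for Slc7a11 MMTV-neu minus Comma-D was -0.08.

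Of 27 hypoxia and glycolysis genes, 17 were lower in all 3 pairs and 1 higher, with a median of -0.19 that became 0.04 after centring and -0.06 after quantile normalization. Pfkp, the platelet form of phosphofructokinase, differed by -0.42 (adjusted p 0.124 by limma) and the collagen prolyl hydroxylase P4ha1 by -0.40 (adjusted p 0.0879). Of 24 cholesterol and fatty acid synthesis genes, 14 were lower in all 3 pairs and 0 higher. Their median was -0.24, -0.01 after centring and -0.02 after quantile normalization. Lower in all 3 pairs were 63.0% of the hypoxia and 58.3% of the cholesterol list, against 31.2% of all genes and 66.8% of the highest bin. That bin holds 18 of the 27 and 17 of the 24 genes. Idi1, an isoprenoid isomerase of the sterol pathway, differed by -0.62 (pairs -0.60, -0.46 and -0.81, adjusted p 0.148).

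**Figure D3:**
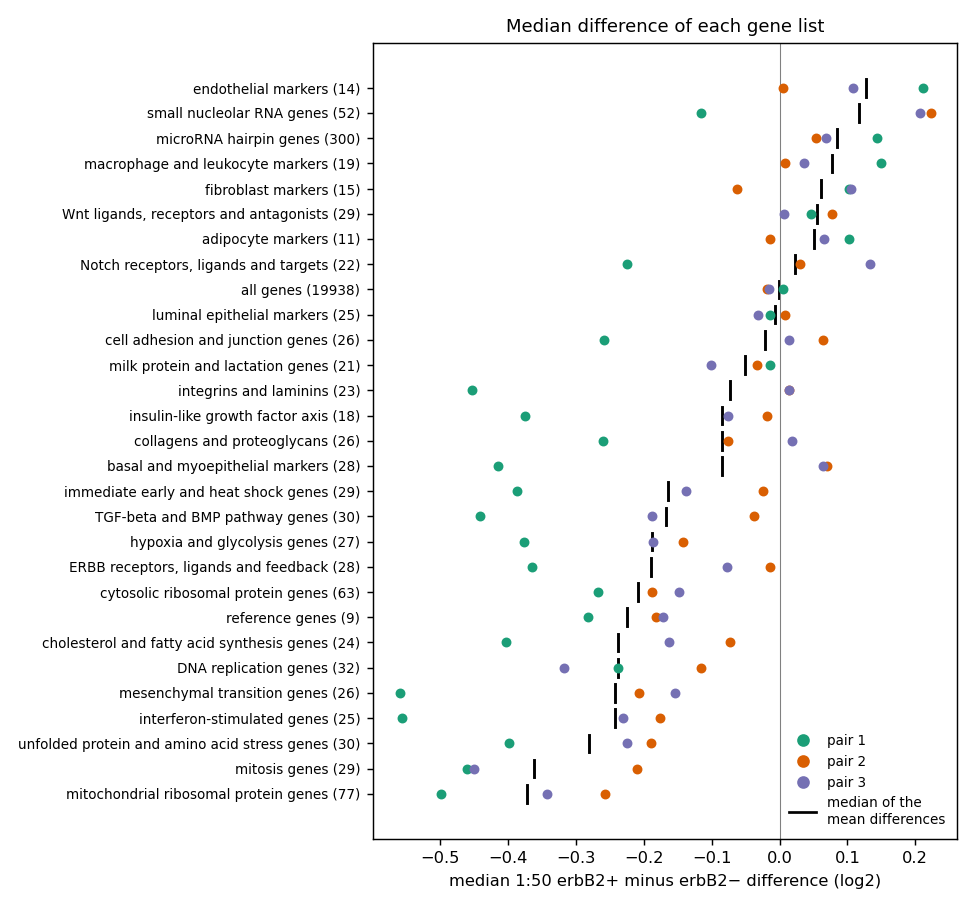
Median 1:50 difference (x axis, log2, erbB2-positive minus erbB2-negative) of each gene list (y axis, number of measured members in parentheses), with a coloured point for each pair and a black bar for the median of the mean differences. Pair 1 is farthest from 0 for most lists, and many lists are below 0 in all 3 pairs. Among these are mitochondrial ribosomal protein, mitosis, unfolded protein and interferon-stimulated genes, and also the reference genes.

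The basal and myoepithelial list did not differ one way in the 3 pairs. Its 28 members had a median of -0.09, from -0.42 in pair 1 to 0.07 and 0.06 in pairs 2 and 3. Of them, 7 (25%) were lower in all 3 pairs and 3 (10.7%) higher, against 31.2% and 22.6% of all genes. The 28 include 19 of the highest bin by Comma-D level, where 66.8% of genes were lower in all 3 pairs. The list's median was 0.14 after centring and 0.05 after quantile normalization. Cnn1, a calponin that binds actin, lay at 9.81, 10.43 and 10.33 in the negative and 8.87, 9.82 and 9.84 in the positive arrays, a difference of -0.68 (SE 0.10, adjusted p 0.0752 by limma). Tagln, its relative, differed by -0.55 (adjusted p 0.108), and the smooth muscle actin Actg2 by -0.47 (adjusted p 0.0879). Other contractile genes of the list did not show this, with the myosin heavy chain Myh11 at 0.16 (adjusted p 0.325) and the myosin kinase Mylk at -0.01 (adjusted p 0.963, and 0.22 after centring), both chosen after their values were seen. Acta2, the major smooth muscle actin of myoepithelium, differed by -0.11 (adjusted p 0.527), Krt5 by -0.16 (adjusted p 0.335) and Krt14 by -0.11 (adjusted p 0.562), and all 3 were above 0 after centring. Col17a1, a hemidesmosome collagen, differed by 0.25 (adjusted p 0.277), with -0.18 in pair 1 and 0.57 and 0.35 in the others.

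Of 26 mesenchymal transition genes, 14 were lower in all 3 pairs and 1 higher. That is 53.8% lower, against 31.2% of all genes and 66.8% of the highest bin, which holds 16 of the 26. Entirely below were 6 (23.1%), against 17.1% of all genes and 38.6% of that bin, and 1 lay entirely above. The list's median was -0.24, -0.01 after centring and -0.08 after quantile normalization. Prrx1, a mesenchymal homeobox factor, lay at 10.10, 9.79 and 9.65 in the negative and 9.21, 9.41 and 9.26 in the positive arrays, a difference of -0.56 (SE 0.11, adjusted p 0.0752 by limma). S100a4, a calcium-binding protein of motile and fibroblast-like cells, differed by -0.53 (adjusted p 0.117), Lox, which crosslinks collagen, by -0.52 (adjusted p 0.0844), and Vim by -0.13 (adjusted p 0.534). The growth factors Tgfb1 and Tgfb2 differed by -0.48 (adjusted p 0.0752) and -0.46 (adjusted p 0.100). In the TGF-beta and BMP list of 30, 16 were lower in all 3 pairs and 2 higher. That is 53.3% lower, against 31.2% of all genes and 66.8% of the highest bin, which holds 23 of the 30. Id3 of that list, a target of BMP signalling, differed by -0.45 (adjusted p 0.0777). That list's median of -0.17 was 0.06 after centring and 0.00 after quantile normalization.

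Matrix and adhesion lists had medians near 0. The 26 collagens and proteoglycans had a median of -0.08 (0.14 after centring, 0.02 after quantile normalization), although the small proteoglycans Ogn and Aspn differed by -0.82 (pairs -1.25, -0.65 and -0.54, adjusted p 0.0757 by limma) and -0.72 (pairs -0.75, -0.85 and -0.57, adjusted p 0.103). In both, replicate 2 was the highest in each fraction, so arrays overlapped while every pair was lower. The 23 integrins and laminins had a median of -0.07 (0.16 after centring, 0.04 after quantile normalization). Of them, 9 (39.1%) were lower in all 3 pairs and 2 higher, against 31.2% and 22.6% of all genes. The 23 include 13 of the highest bin by Comma-D level, where 66.8% of genes were lower in all 3 pairs. The collagen-binding integrin chains Itga1 and Itga2 differed by -0.57 (pairs -1.05, -0.28 and -0.38, adjusted p 0.102) and 0.40 (adjusted p 0.158), and the basement membrane linker Nid1 by -0.52 (adjusted p 0.151). The 26 adhesion and junction genes had a median of -0.02 (0.21 after centring, 0.11 after quantile normalization). Their differences ran from -0.50 for Cldn1, a tight junction claudin (adjusted p 0.134), to 0.32, with the gap junction connexin Gja1 at -0.37 (adjusted p 0.125). In all 3 pairs 5 (19.2%) were higher and 5 lower, against 22.6% and 31.2% of all genes. Entirely above were 3 (11.5%) and entirely below 1 (3.85%), against 12% and 17.1% of all genes.

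Genes of ERBB signalling itself did not share a direction. The 28 receptors, ligands and feedback genes had a median of -0.19, which was 0.04 after centring and -0.02 after quantile normalization. Of them, 14 (50%) were lower in all 3 pairs and 5 (17.9%) higher, against 31.2% and 22.6% of all genes. The highest bin, where 66.8% of genes were lower in all 3 pairs, holds 12 of the 28. Egfr lay at 9.29, 8.75 and 8.34 in the negative and 8.48, 8.86 and 8.04 in the positive arrays, with pairs of -0.81, 0.11 and -0.30 and an adjusted p of 0.233 by limma. Erbb3 differed by -0.02 (adjusted p 0.906), the ligand Ereg by -0.35 (adjusted p 0.0841), and Dusp6, the phosphatase that ERK signalling induces to restrain ERK, by -0.43 (adjusted p 0.0939). Dusp5, a nuclear ERK phosphatase, differed by 0.33 with separate arrays (adjusted p 0.212).

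The other 4 lists had medians close to the 0.00 of all genes before centring or quantile normalization. The 22 Notch genes had a median of 0.02 (0.25 after centring, 0.12 after quantile normalization). Of them, 5 (22.7%) had positive arrays entirely above and 2 (9.09%) below, against 12% and 17.1% of all genes. The target Hey2 lay at 6.53, 6.68 and 6.48 in the negative and 5.73, 6.00 and 5.90 in the positive arrays, a difference of -0.69 (adjusted p 0.0804 by limma). The 29 Wnt genes had a median of 0.05 (0.28 after centring, 0.09 after quantile normalization). In all 3 pairs 9 (31.0%) were higher and 3 (10.3%) lower, against 22.6% and 31.2% of all genes. Against the direction of most of these, the Wnt antagonist family member Dkk3 differed by -0.41 (pairs -0.77, -0.37 and -0.11, adjusted p 0.127). The 18 genes of the insulin-like growth factor axis had a median of -0.08 (0.15 after centring, 0.04 after quantile normalization), with the binding protein Igfbp6 at -0.39 (adjusted p 0.0752). In all 3 pairs 7 (38.9%) of the 18 were lower and 0 higher. The 21 milk protein and lactation genes had a median of -0.05 (0.18 after centring, -0.01 after quantile normalization), with the lipid droplet protein Plin2 at -0.46 (adjusted p 0.109). In all 3 pairs 8 (38.1%) of the 21 were lower and 5 (23.8%) higher.

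The differences mostly ran in the direction from Comma-D to MMTV-neu. Of the 2390 genes with positive arrays entirely above, 97.2% were called higher in MMTV-neu than in Comma-D, against 54.7% of all genes, and of the 3412 entirely below, 75.3% were called lower in MMTV-neu, against 30.6% of all genes. In the lines, 85.3% of genes were called. Across genes, which share arrays and are not independent, the pair difference correlated with the line difference at r of 0.821, 0.361 and 0.626, with slopes of 0.26, 0.05 and 0.12. Pair 1 again had the highest value and pair 2 the lowest. The MMTV-neu arrays also had the narrowest spread of values, at standard deviations of 1.51 to 1.55, and the part of this in the shared direction was not tested.

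The size of the 1:50 difference was also taken as a share of the line difference. The share uses the same 1:50 difference by which Krt8 ranked first of all genes, so the rank of Krt8 here is no separate support. Of the 80 genes at least 2 log2 units higher in MMTV-neu, the median share was 18.9%, with 35.4%, 6.45% and 14.8% in the 3 pairs. For Krt8 the share was 62.9%, with 74.0%, 49.8% and 64.8%, the highest of the 80, and the next were 41.9% for Gm11517 and 40.6% for Chd7. Gm11517, which has a provisional symbol, was also chosen after its values were seen. For the 1561 genes at least 2 log2 units lower in MMTV-neu the median share was 12.3%, and 675 of them had positive arrays entirely below the negative arrays.

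**Figure D4:**
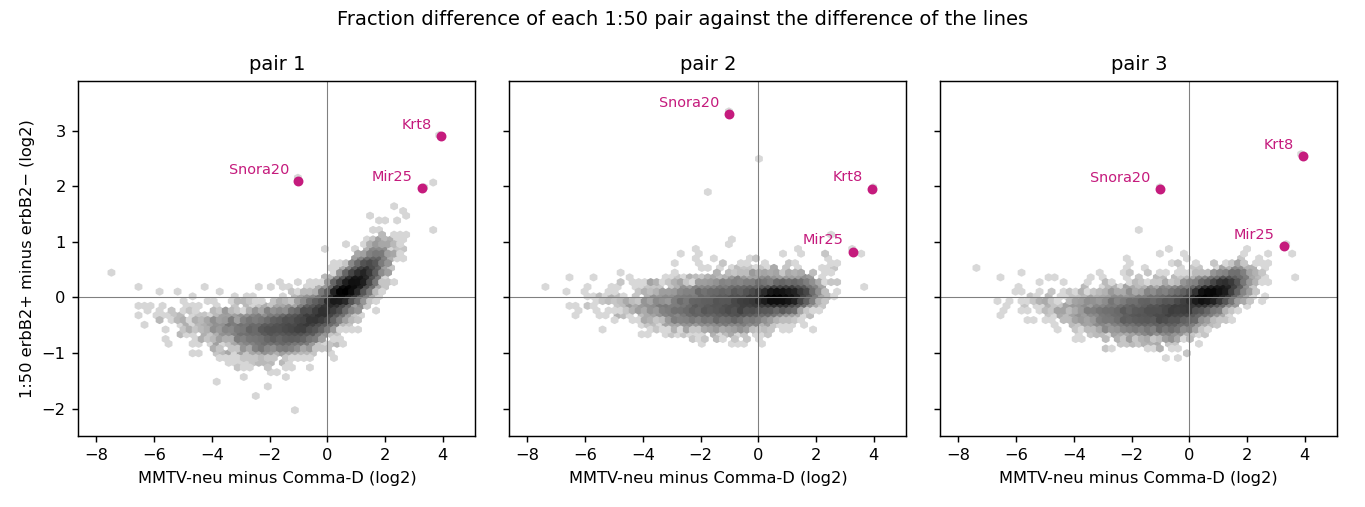
Difference between the 1:50 fractions (y axes, log2, erbB2-positive minus erbB2-negative) against the difference between the unmixed lines (x axes, log2, MMTV-neu minus Comma-D) for all 19938 genes, one panel per pair, darker cells holding more genes on a log scale. The cloud is steepest in pair 1 (r 0.821) and flattest in pair 2 (r 0.361), and Krt8 and Snora20 lie above it in each panel, with Mir25 at its upper right edge.

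The 1:50 and 1:1 co-cultures were compared by the difference of their fraction differences in the same limma fit. In the 1:1 co-culture 8436 genes were called higher (42.3%) and 4673 lower (23.4%) in the erbB2-positive fraction, and 1622 genes were at least 1 log2 unit lower, against 1 at 1:50. The 2 differences were called unlike for 1645 genes with the 1:50 value above the 1:1 value (8.25%) and 1187 with it below (5.95%), a count that ran from 67 without the replicate block to 14860 after centring. Krt8 differed by 2.47 at 1:50 and 0.53 at 1:1 (unlike by 1.94, adjusted p 0.00279), where the 1:1 erbB2-negative fraction already held a high level. Snora20 differed by 2.45 at 1:50 and -0.39 at 1:1 (unlike by 2.84, adjusted p 0.00228).

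The other genes with the largest differences between the co-cultures were those that separated the fractions at 1:1. Zfp971, a zinc finger gene, fell by 2.79 in the 1:1 erbB2-positive fraction (adjusted p 2.03e-05) and differed by -0.59 at 1:50 (unlike by 2.21, adjusted p 0.00183). Prdx2, a peroxide-reducing enzyme, fell by 2.39 at 1:1 and differed by -0.35 at 1:50 (unlike by 2.04, adjusted p 0.0293). Snord82, a small nucleolar RNA, fell by 1.93 at 1:1 and differed by 0.22 at 1:50 (unlike by 2.15, adjusted p 0.00183), and Arhgap42 fell by 2.12 at 1:1 and differed by -0.16 at 1:50 (unlike by 1.95, adjusted p 0.00183). Xist fell by 1.61 at 1:1 and differed by 0.02 at 1:50 (unlike by 1.63, adjusted p 0.00183). In the other direction Jph1, a junctional membrane protein, rose by 0.91 at 1:1 and differed by 0.08 at 1:50 (unlike by -0.84, adjusted p 0.0101). For Mir25, Mir421, Gstm5 and Ifi205 the 2 co-cultures gave similar values, at 0.88, 1.42, -1.17 and -0.76 in the 1:1 co-culture, with adjusted p for the difference of 0.386, 0.667, 0.332 and 0.495.

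**Figure D5:**
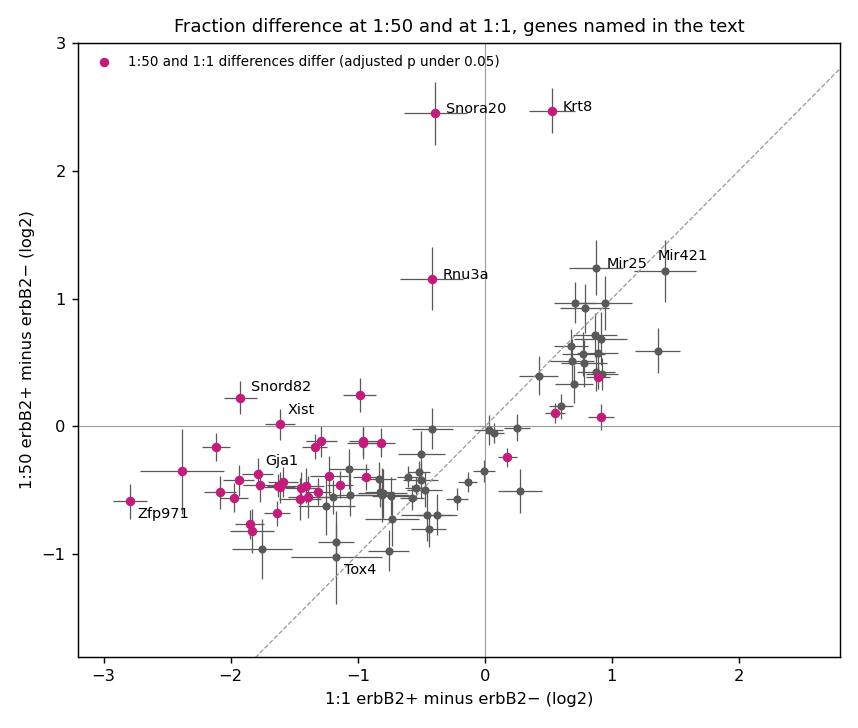
Difference between erbB2-positive and erbB2-negative fractions (log2) at 1:50 (y axis) against 1:1 (x axis) for 87 genes named in the text, with standard errors from limma as bars and a dashed line of equal values. Krt8 and Snora20 lie far above the dashed line, and Zfp971, Snord82 and Xist show large falls at 1:1 with values of -0.59, 0.22 and 0.02 at 1:50.

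Markers of cell types that a mammary culture could hold besides epithelium gave no call at 1:50, where 0.00502% of all genes were called. The 14 endothelial markers had a median of 0.13, the 19 macrophage and leukocyte markers 0.08, the 11 adipocyte markers 0.05 and the 15 fibroblast markers 0.06. No endothelial or adipocyte marker, 1 leukocyte marker and 6 of the 15 fibroblast markers belong to the highest bin of genes by Comma-D level. Of the 19 leukocyte markers, 5 (26.3%) had positive arrays entirely above and 0 below, against 12% and 17.1% of all genes. The 2 lowest bins, where 18% and 21.0% of genes lay entirely above, hold 17 of these 19. Cd3e, a T cell receptor chain, differed by 0.42 (adjusted p 0.138 by limma) and was 1.76 higher in MMTV-neu than in Comma-D. S100a4, given above, had the largest difference of the fibroblast markers. Pdgfra and Pdgfrb of the same list differed by -0.38 (adjusted p 0.166) and -0.42 (adjusted p 0.103), with lower values in all 3 pairs. Of the 15 fibroblast markers, 3 were lower in all 3 pairs and 2 higher. The 4 medians were 0.36, 0.31, 0.28 and 0.29 after centring and 0.03, 0.01, -0.02 and 0.05 after quantile normalization.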

How the data were processed

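RNA of 18 samples in 6 groups of 3 had been hybridised to 1-colour mouse gene arrays. The authors deposited log2 values, made with RMA, limma and R 3.1.2 per the submitters' processing notes; the sources used here give no filter or build. Arrays give no read depth, so their number limits the precision. Of 35556 probe sets, 21789 name 1 gene, 1621 several (left out), and 12146 are not in the probe annotation. For each of 19938 genes, the single-gene probe set of highest mean across the 18 arrays was used.

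With limma 3.58.1 (R 4.3.3, lmFit, eBayes) the 12 co-culture arrays were fitted with each pair of fractions as a block, two-sided, Benjamini-Hochberg adjusted over all genes, and the procedure was tested on simulated data. Equal replicate numbers pair the samples: deviations from group means correlated within a number at 0.342, 0.307 and 0.702 at 1:50 and 0.628, 0.218 and 0.602 at 1:1. Lists (24, with 566 of 598 genes measured) are described by counts and medians, with ribosomal protein, small RNA and interferon genes added by symbol. Members, lists and tests were chosen with earlier results of these data known. Named genes were every gene called, some of the up to 6 members of each list with the largest differences, some of the 5 genes each way with the largest differences between ratios, and 11 set genes; the choice among these and all others named came after their values were seen. Alternatives were another filter, probe set rule, prior, scaling, block, sample set and threshold, and leaving out each pair.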

Additional observations from a re-analysis of the deposited data

Results flagged for a closer look

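For 37 of the 87 genes named, the difference between erbB2-positive and erbB2-negative fractions was unlike in the 1:50 and 1:1 co-cultures by limma's interaction test (adjusted p under 0.05), which is why they are listed here. Values are the 1:50 difference minus the 1:1 difference in log2 units, 3 pairs each, and no explanation was weighed. The named genes were partly chosen by this test, so their share is no measure of how common it is. Groups of 3 arrays are too small for the outlier check used elsewhere.

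The luminal keratin Krt8 had 1.94 (adjusted p 0.00279), with a larger positive difference at 1:50. Among small RNA genes Snora20 had 2.84 (0.00228), Rnu3a 1.57 (0.0258) and Snord82 2.15 (0.00183), while Mir93 had -0.51 (0.0409). Basal keratins lay at 1.18 for Krt5 (0.00206) and 1.17 for Krt14 (0.00439), since both fell at 1:1, by 1.34 and 1.29, and differed by -0.16 and -0.11 at 1:50. Of the simple keratins, Krt18 had -0.42 (0.0358) and Krt19 -0.45 (0.0365).

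Contractile genes gave 0.85 for Acta2 (0.0124), 0.96 for Cnn1 (0.00495), 0.84 for Tagln (0.0487) and 1.14 for Actg2 (0.00528), and the hemidesmosome collagen Col17a1 gave 1.23 (0.00550). Mesenchymal and matrix genes gave 0.83 for Vim (0.0219), 1.42 for Prrx1 (0.00190), 1.57 for Lox (0.00196), 1.02 for Ogn (0.0334), 0.88 for Itga1 (0.0420), 0.84 for Pdgfra (0.0381) and 1.52 for Pdgfrb (0.00198). In signalling, Dusp6 had 1.16 (0.00438), Tgfb2 1.31 (0.00390) and Id3 0.69 (0.0228). The junction genes Gja1 and Epcam had 1.42 (0.00227) and 0.69 (0.0305).

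In metabolism and the cell cycle, Plin2 had 0.94 (0.0218), Prdx2 2.04 (0.0293), Shmt2 1.16 (0.00183), P4ha1 0.54 (0.0433), Mad2l1 1.08 (0.00471) and Pcna 0.80 (0.0126), and the interferon-stimulated gene Usp18 had 0.97 (0.0109). The remaining genes were Xist at 1.63 (0.00183), Zfp971 at 2.21 (0.00183), Arhgap42 at 1.95 (0.00183) and Jph1 at -0.84 (0.0101).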

How the results depend on the processing

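The count of genes called at 1:50, 1 as reported, was 439 without the lowest 40% of genes, 137 with trend and robust priors, 22 after centring on reference genes, 0 after quantile normalization, 2 without the replicate block in the fit of 12 arrays, 2 without it in a fit of 18 arrays, 2 with the replicate block by number, 918 with the replicate block in the 6 arrays of the 1:50 co-culture, and 0 at an adjusted p under 0.01. It ran from 0 to 2715 when single pairs were left out, the highest without pair 1 of the 1:1 co-culture. Added after the data were seen were an adjusted p under 0.1 (1508), the 6 arrays with trend and robust priors (2776) and the 6 arrays after quantile normalization (0). The 1:1 count of 13109 was 7912 without the lowest genes and 1631 with a minimum of 1 log2 unit. The interaction count of 2832 was 14860 after centring, 4694 after quantile normalization, 67 and 548 without the replicate block in 12 and 18 arrays, 738 with a minimum of 1 log2 unit, 759 at an adjusted p under 0.01 and 700 to 5938 without single pairs. The position difference of 11.1 points stayed within its spread, at 6.82 to 14.1 without single pairs. The cause of these changes was not tested, except that centring adds a constant to each array.

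List medians after centring were 0.041 for ERBB genes, 0.223 for luminal markers, -0.012 for mesenchymal genes, 0.209 for adhesion, 0.145 for collagens, 0.146 for insulin-like growth factor genes, 0.179 for milk genes, 0.252 for Notch, 0.285 for Wnt, 0.062 for TGF-beta, -0.051 for unfolded protein, -0.0079 for cholesterol, 0.042 for hypoxia, 0.065 for immediate early, -0.013 for interferon-stimulated, -0.132 for mitosis and -0.0081 for DNA replication genes, and 0.357, 0.307, 0.280 and 0.291 for endothelial, leukocyte, adipocyte and fibroblast markers. After quantile normalization they were 0.065 for luminal, 0.094 for Wnt, -0.067 for unfolded protein, -0.021 for cholesterol, -0.063 for hypoxia, 0.021 for immediate early, -0.182 for mitosis, -0.119 for DNA replication and -0.018 for adipocyte genes. Without the lowest genes Wnt was -0.0082 and adipocyte 0.172. Leaving out single pairs gave -0.028 to -0.014 for luminal and -0.345 to -0.139 for hypoxia genes.

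Of 87 genes named, 73 kept the direction of their 1:50 difference under all 15 alternatives. The others turned as follows. After centring the differences were 0.177 for Erbb2, 0.205 for Erbb3, 0.211 for Cdh1, 0.103 for Vim, 0.073 for Krt5, 0.115 for Krt14, 0.116 for Acta2, 0.221 for Mylk, 0.067 for Arhgap42, 0.016 for Mcm7 and 0.104 for Epcam. After quantile normalization they were 0.154 for Erbb2, 0.193 for Erbb3, 0.216 for Cdh1, 0.039 for Krt5, 0.107 for Krt14, 0.0033 for Krt18, 0.010 for Acta2, 0.073 for Arhgap42, 0.030 for Mcm7 and 0.105 for Epcam. Leaving out single 1:50 pairs gave -0.146 to 0.144 for Erbb3, -0.138 to 0.156 for Cdh1, -0.220 to 0.047 for Krt14, -0.073 to 0.181 for Xist, -0.021 to 0.133 for Jph1 and -0.109 to 0.056 for Mylk. None of these genes was called at 1:50.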
